A study of Mus musculus with 7 samples.

Results

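The p53-null esophageal lines, Null1 and Null3, were set against the wild-type lines, WT1 and WT2. The members were chosen by their labels alone: 4 of the 7 libraries of the study, with all genes considered, of which 13768 of 23955 passed a filter on low counts and are called the genes tested. The WT lines were wild type, on a mixed strain background, with no treatment label. The null lines were p53 -/-, on a mixed strain background, and labelled 4NQO, a quinoline carcinogen that forms bulky DNA adducts and is used to induce squamous tumors in mice. The other 3 libraries were p53R172H mutant lines, also labelled 4NQO, which entered the fit only to estimate the spread between lines. All lines were labelled esophageal epithelial cells and were grown in dishes in KSFM, a keratinocyte medium. The null allele, how and when 4NQO was given, and whether a line was 1 clone or came from its own animal were not given in the sources used here. The p-values below therefore set differences between groups against the spread among these libraries, which need not be the spread between animals. Genotype and the 4NQO label change together between the groups and cannot be told apart. The part of strain differences between lines of mixed background was not tested.

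p53 is a transcription factor that is kept at a low level by the ubiquitin ligase Mdm2 and accumulates after DNA damage. It then activates genes that stop the cell cycle, repair DNA or start apoptosis, and it lowers many cell cycle genes indirectly, through the inhibitor p21 (Cdkn1a) and repressor complexes at their promoters. In squamous epithelium it acts in basal cells, which divide and then differentiate into keratin-rich suprabasal layers.

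Library totals were 31283848 counts in WT1, 12751118 in WT2, 33598210 in Null1 and 25469853 in Null3. Values below are CPM, counts scaled to library size, after trimmed-mean (TMM) normalization, and fold changes are on the log2 scale. The null lines differed from each other more than the WT lines did: 2453 genes (17.8%) were at least 1 apart on the log2(CPM + 0.5) scale between Null1 and Null3, against 563 (4.09%) between WT1 and WT2. Of the 2453 genes, 1628 were higher in Null3 and 825 were higher in Null1. Across genes, the correlation of log2(CPM + 0.5) was 0.984 between the WT lines, 0.921 between the null lines and 0.967 between Null3 and the mutant line Mutant1, values that describe these libraries and carry no test.

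The label of epithelial cells was checked against markers. Epithelial genes were present in every line: Cdh1, the adhesion protein E-cadherin, stood at 931 and 691 CPM in WT1 and WT2 and at 742 and 762 CPM in Null1 and Null3. Trp63, the transcription factor of basal squamous cells, stood at 281 and 412 CPM in the WT lines, 305 CPM in Null1 and 168 CPM in Null3. The keratins were present but lower. The 3 basal keratins tested, all below both WT lines, summed to 25230 and 35870 CPM in WT1 and WT2, 8161 CPM in Null1 and 4435 CPM in Null3. The 5 suprabasal keratins tested summed to 113, 215, 29.4 and 72.6 CPM in the same order. Null3 also held transcripts of other tissues. Of 27 skeletal muscle genes, a list chosen after the muscle factor Myod1 was seen in Null3, 1 was at 0 in Null3, 12 in Null1, 18 in WT1 and 20 in WT2. Their summed level was 233 CPM in Null3 against 0.578 and 1.7 CPM in the WT lines and 1.43 CPM in Null1. In Mutant1, Mutant2 and Mutant3 it was 21.4, 1.83 and 1.88 CPM. Myod1 was at 23.01 CPM, Myog, a factor of muscle differentiation, at 29.0 CPM and Des, the muscle filament desmin, at 26.0 CPM in Null3, and the counts of Myod1 and Myog were 0 in WT1, WT2 and Null1. In bulk RNA a small share of muscle-like cells and a low level in every cell cannot be told apart.

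Of 18 fibroblast markers, 1 was at 0 in Null3, 4 in Null1, 8 in WT1 and 5 in WT2. Their sum was 2060 CPM in Null3, 477 CPM in Null1 and 604 and 384 CPM in WT1 and WT2. Most of the sum in the WT lines and Null1 came from 1 gene, the matrix protein Fbln2, at 597, 372 and 465 CPM. Null3 also held collagens (Col5a2 308 CPM, Col3a1 276 CPM) and Pdgfrb, a receptor of fibroblasts and pericytes (59.99 CPM). These were not particular to Null3. In Mutant1, Mutant2 and Mutant3, Col3a1 was at 148, 0.214 and 183 CPM and Pdgfrb at 24.3, 0.0712 and 17.1 CPM. The marker sum in these lines was 1800, 888 and 956 CPM, with Fbln2 at 624, 791 and 450 CPM. The leukocyte gene Ptprc was at 0.0609 CPM in Null1 and 0.038 CPM in Null3 and at 0 in the WT lines, and the endothelial gene Cdh5 was at 0 in all 4. Results for the null lines are therefore given line by line.

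**Figure D1:**
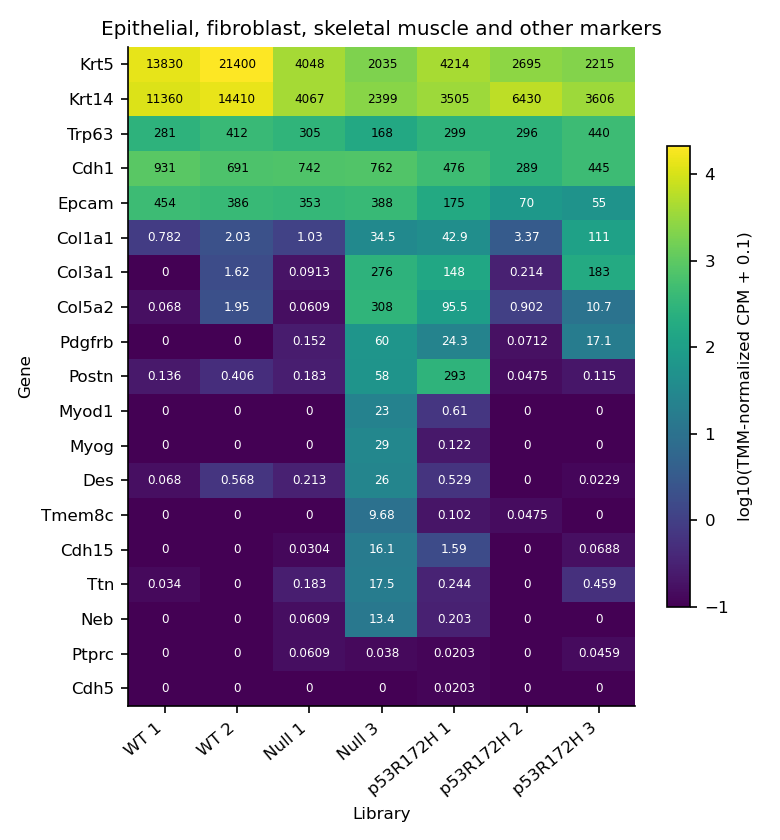
Marker genes (rows) in the 7 libraries (columns), as TMM-normalized CPM printed in each cell and coloured by log10(CPM + 0.1). Epithelial genes such as Cdh1 (762 CPM in Null3) were present in every library, and the muscle genes Myod1 and Myog reached 23.01 and 29.0 CPM in Null3 while WT1, WT2 and Null1 had none.

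Trp53 itself, the targeted gene, was read as a check of the labels. It stood at 212 CPM in WT1, 193 CPM in WT2, 8.73 CPM in Null1 and 4.71 CPM in Null3, and the mutant lines held 171.6, 249.6 and 253.9 CPM. Both null libraries were far below every other library.

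In the fit over all genes, 10 genes (0.0726% of those tested) rose and 9 genes (0.0654%) fell in the null lines, 19 in all (0.138%), at an adjusted p under 0.05 by edgeR's quasi-likelihood F test with Benjamini-Hochberg adjustment. At an unadjusted p under 0.05 there were 2777 genes (20.2%), 1536 higher and 1241 lower. The count depended on single libraries. It was 0 without WT1, 0 without WT2 and 0 without Null3, and it was 55 without Null1. The genes at an unadjusted p under 0.05 numbered 2147, 1126 and 2189 in the 3 fits with no call. It was 8 without Mutant2 and 3 without Mutant3. On the same 7 libraries DESeq2 called 1635 genes, 949 higher and 686 lower, and limma-voom called 0, with 2155 at an unadjusted p under 0.05. Among the 13768 genes tested DESeq2 called 944 higher and 686 lower, the background for its list counts below.

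Genes were also sorted by where the null libraries lay, with no test. Both null lines lay above both WT lines for 4000 genes (29.1%) and below both for 3728 genes (27.1%). With a distance of at least 1 on the log2(CPM + 0.5) scale between the nearest libraries of the groups, these were 448 genes (3.25%) above and 378 genes (2.75%) below. All 3 mutant lines also lay above both WT lines for 329 of the 448 genes, and below both for 339 of the 378. The null lines disagreed, with Null1 above and Null3 below both WT lines, for 1044 genes (7.58%), and with Null3 above and Null1 below for 956 genes (6.94%). At a distance of at least 1 on each side, the disagreeing genes were 12 (0.0872%) and 27 (0.196%). The same-side counts with a distance of at least 1 grew when a group was left with 1 library: to 918 above and 793 below without WT1, 1512 and 806 without Null1, and 840 and 875 without Null3.

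**Figure D2:**
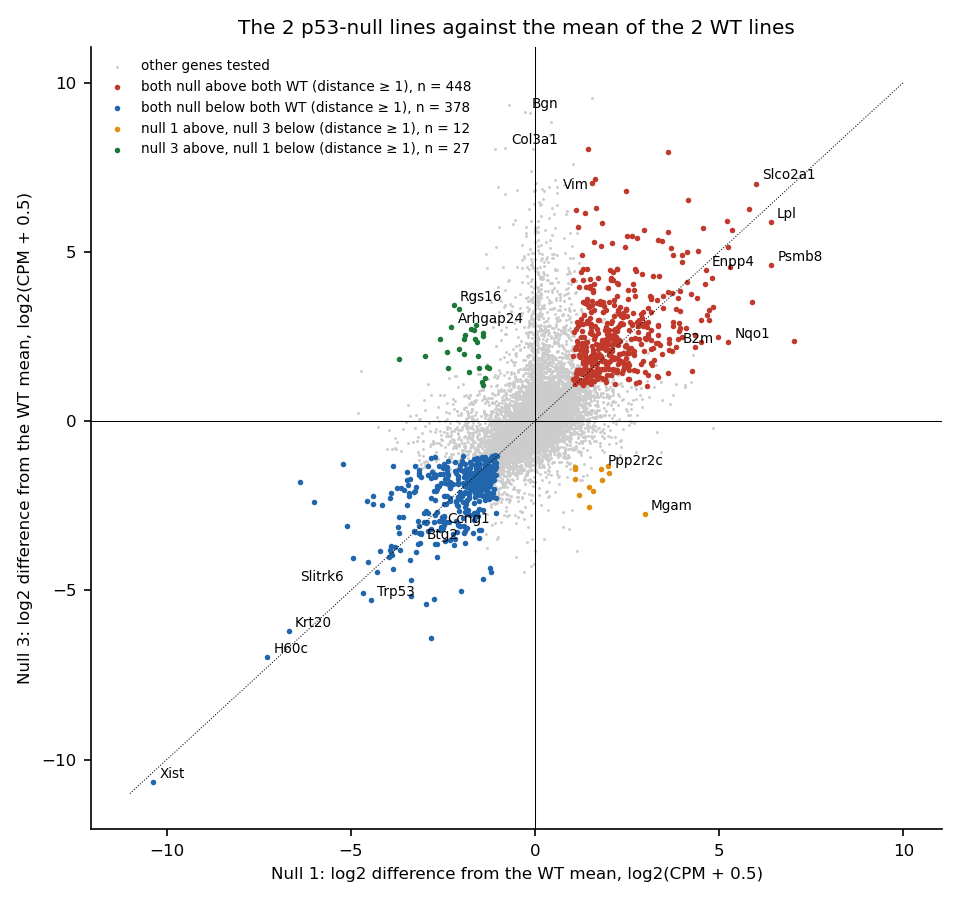
Each point is 1 of 13768 genes, with its log2 difference from the WT mean in Null1 (horizontal axis) and Null3 (vertical axis), on log2(CPM + 0.5). Coloured points are the 448 genes above and 378 below both WT lines by at least 1 in both null lines, and the 12 and 27 genes where the null lines lay on opposite sides; the dotted line marks equal differences.

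Genes that p53 is known to activate were mostly lower in both null lines. Of 50 such genes tested, 34 lay below both WT lines and 5 above, where 27.1% and 29.1% of all genes tested did so. The null lines disagreed for 3. At a distance of at least 1 there were 18 below and 1 above. The median log2 fold change was -1.24, against 0.057 over all genes tested, and it was -0.94 without WT1. 3 members fell (Ccng1, Btg2 and Ercc5) and 0 rose, with 31 lower and 3 higher at an unadjusted p under 0.05, and DESeq2 called 28 lower and 2 higher. The mean log2 difference from the WT mean over the list was -0.90 in Null1 and -1.09 in Null3. It was -0.99, -1.07 and -1.05 in Mutant1, Mutant2 and Mutant3, so the lower values were not particular to the null lines. The list was chosen with earlier results of these data known and is not independent evidence of its direction.

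Stretches of the promoters of 3 of these genes, Ccng1, Cdkn1a and Mdm2, show the short decamer that p53 binds, which reads as 3 purines, C, 2 weak bases, G and 3 pyrimidines. The sequences are from RefSeq promoters of build GRCm38.p6, 5′ to 3′ on the strand of the gene, with matches to the decamer in capitals. The stretches lie at chr11:40755447-40755486 (minus strand), chr17:29090891-29090952 (plus) and chr10:117710920-117710959 (minus).
Ccng1: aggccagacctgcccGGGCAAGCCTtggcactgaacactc
Cdkn1a: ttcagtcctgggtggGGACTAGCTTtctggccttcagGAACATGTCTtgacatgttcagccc
Mdm2: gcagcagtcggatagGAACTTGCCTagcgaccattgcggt
A match on either strand was found for 12 of the 39 list genes that had a promoter in the table (30.8%) and for 868 of 10280 genes tested that had one (8.4%). Known p53 sites often lie outside the promoter window searched, and a match describes the letters only. The window reached past the start, so some counted matches lie after it, whereas the stretches shown hold only bases before it.

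Among targets that arrest the cell cycle, Btg2, an antiproliferative factor, stood at 201 and 193 CPM in WT1 and WT2 and at 22.2 and 15.9 CPM in Null1 and Null3. The groups did not overlap, and Btg2 fell by 3.37 on the log2 scale (SE 0.285, edgeR adjusted p = 0.0191). Ccng1, the regulator cyclin G1 of the Mdm2 feedback, stood at 738 and 503 CPM in the WT lines and 104 and 69.0 CPM in the null lines. It fell by 2.85 (SE 0.284, edgeR adjusted p = 0.0295). Cdkn1a, which encodes p21, was at 574 and 336 CPM in the WT lines and 98.9 and 56.2 CPM in the null lines. Its libraries did not overlap either, but the log2 fold change of -2.55 (SE 0.457) had an edgeR adjusted p of 0.0871 and was not called. Sfn, the 14-3-3 sigma protein of squamous cells, was at 803 and 719 CPM in the WT lines and 241 and 213 CPM in the null lines (adjusted p = 0.144 by edgeR). Gadd45a, a growth arrest gene, went the other way, with 108 and 61.3 CPM in the WT lines and 168 and 112 CPM in the null lines.

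Of the feedback genes, Mdm2 was at 328 and 203 CPM in WT1 and WT2 and at 109 and 91.0 CPM in Null1 and Null3, a log2 fold change of -1.41 with an edgeR adjusted p of 0.0827. Of 12 apoptosis genes, 10 lay below both WT lines and 0 above. Fas, the death receptor, was at 19.2 and 14.4 CPM in the WT lines and 2.65 and 3.19 CPM in the null lines. The BH3-only gene Pmaip1 was at 324 and 211 CPM against 101 and 120 CPM. Perp, a p53 and p63 target that is also a desmosome protein, split the null lines, with 1951 CPM in Null1 and 1060 CPM in Null3 around 1512 and 1437 CPM in WT1 and WT2.

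DNA repair targets were divided. Ercc5, an endonuclease of nucleotide excision repair, was at 91.3 and 107 CPM in the WT lines and at 19.7 and 25.5 CPM in the null lines, and it fell by 2.13 (SE 0.234, edgeR adjusted p = 0.0397). Polk, a translesion polymerase, lay below both WT lines at 24.0 and 29.7 CPM against 67.5 and 62.0 CPM. Xpc and Ddb2, which recognise DNA damage, did not: Xpc was at 49.8 and 40.8 CPM in the WT lines and 56.6 and 47.5 CPM in the null lines, and Ddb2 was at 32.4 and 27.9 CPM against 36.1 and 25.4 CPM. Sulf2, among the other targets, had the widest gap of the list. This heparan sulfatase was at 190 and 169 CPM in WT1 and WT2 and at 11.4 and 11.9 CPM in Null1 and Null3, and Psrc1, a spindle protein, at 13.9 and 16.8 CPM against 0.822 and 1.71 CPM, with edgeR adjusted p of 0.192 and 0.0767. The members above both WT lines included Steap3, a ferrireductase, at 25.1 and 27.2 CPM in the null lines against 3.74 and 6.09 CPM.

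Among p53's own family and regulators, Trp53 fell by 4.91 (SE 0.379, edgeR adjusted p = 0.0149), and 6 of 10 genes lay below both WT lines. Over all genes tested, 27.1% lay below. Cdkn2a, the locus of p16 and p19ARF, was higher in both null lines, at 118 CPM in Null1 and 286 CPM in Null3 against 39.9 and 65.1 CPM in the WT lines, with an edgeR adjusted p of 0.134. The gene-level count does not separate its products. Cdkn1b, the inhibitor p27, was at 76.5 and 65.5 CPM against 42.7 and 36.6 CPM. Ccnd1, cyclin D1, was at 268 CPM in Null1 but at 1200 CPM in Null3, within the WT range of 1190 and 1678 CPM.

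The other genes that fell were few. Xist, whose RNA coats the inactive X, was at 675 and 1653 CPM in WT1 and WT2 and at 0.304 and 0.152 CPM in Null1 and Null3, and it fell by 12.26 (SE 0.971, edgeR adjusted p = 0.0149). The Y-linked RNA helicase Ddx3y was at 0.987 and 0.0812 CPM in the WT lines, 0.0304 CPM in Null1 and 96.4 CPM in Null3. The null lines lay far below the WT lines for Xist, so genotype, 4NQO and sex chromosomes cannot be told apart between the groups. Null3 lay far above the other 3 libraries for Ddx3y, a difference between the null lines themselves. Slitrk6, a neurite-related membrane protein, was at 65.7 and 123 CPM in the WT lines against 3.04 and 2.16 CPM and fell by 5.17 (SE 0.472, edgeR adjusted p = 0.0254). Adss, of purine synthesis, fell by 1.80 (SE 0.196, edgeR adjusted p = 0.0397) and Fbxw9, an F-box protein, by 2.37 (SE 0.254, edgeR adjusted p = 0.0397).

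Genes that rose included several that the WT lines hardly held. St6galnac4, a sialyltransferase, had 0 counts in both WT libraries and 7.39 and 12.6 CPM in Null1 and Null3, at least 134.8-fold higher against a floor of 3 counts over the WT group (edgeR adjusted p = 0.0397). B4galt6, a galactosyltransferase of glycolipid synthesis, was at 0.068 and 0.162 CPM in the WT lines and at 14.1 and 31.4 CPM in the null lines, and Enpp4, a nucleotide hydrolase, at 0.204 and 0.244 CPM against 17.5 and 15.3 CPM. B4galt6 rose by 7.77 (SE 0.756, edgeR adjusted p = 0.0288) and Enpp4 by 6.20 (SE 0.400, edgeR adjusted p = 0.0149). Trim47, a ubiquitin ligase, was at 0.408 and 0.487 CPM in the WT lines and at 19.8 and 30.3 CPM in the null lines (log2 fold change 5.82, edgeR adjusted p = 0.0149), and Bend4, of the BEN domain family, at 0.170 and 0.244 CPM against 16.9 and 11.2 CPM (6.12, edgeR adjusted p = 0.0254).

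Smaller rises came from genes that all lines expressed. Nnt, the mitochondrial transhydrogenase that makes NADPH, was at 16.2 and 15.7 CPM in the WT lines and at 56.7 and 61.7 CPM in the null lines, and it rose by 1.89 (SE 0.184, edgeR adjusted p = 0.0288). The mutant lines held 53.1, 65.1 and 63.0 CPM, and the part of the mixed strain background in the Nnt difference was not tested. Ccng2, cyclin G2, was at 27.1 and 23.6 CPM against 71.2 and 72.2 CPM and rose by 1.4996 (SE 0.1718, edgeR adjusted p = 0.0486). Hspb8, a chaperone of the small heat shock family, was at 44.7 and 38.2 CPM against 210 and 359 CPM and rose by 2.78 (SE 0.294, edgeR adjusted p = 0.0397). Rnf157, a ubiquitin ligase, rose by 2.24 (SE 0.220, edgeR adjusted p = 0.0288). 2 further called genes carried clone or predicted-model names and are not named.

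Some of the widest gaps were not called. H60c, a ligand of the lymphocyte receptor NKG2D, was at 172.4 and 118.5 CPM in WT1 and WT2 and at 0.426 and 0.645 CPM in Null1 and Null3 (edgeR adjusted p = 0.123), and reads of its close paralogs may be shared with it. Krt20, a keratin of differentiated simple and umbrella epithelia, was at 51.9 and 85.4 CPM against 0.152 and 0.418 CPM (edgeR adjusted p = 0.0674). On the other side, Slco2a1, a prostaglandin transporter, was at 0.204 and 0.0812 CPM in the WT lines against 40.3 and 82.4 CPM, and Lpl, lipoprotein lipase, at 1.12 and 2.60 CPM against 188 and 132 CPM (edgeR adjusted p of 0.106 and 0.0821). Scara3, a scavenger receptor, had 1 count over the WT libraries and 1141 over the null libraries, a ratio of 804 with a 95% counting interval of 144 to 31780.

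**Figure D3:**
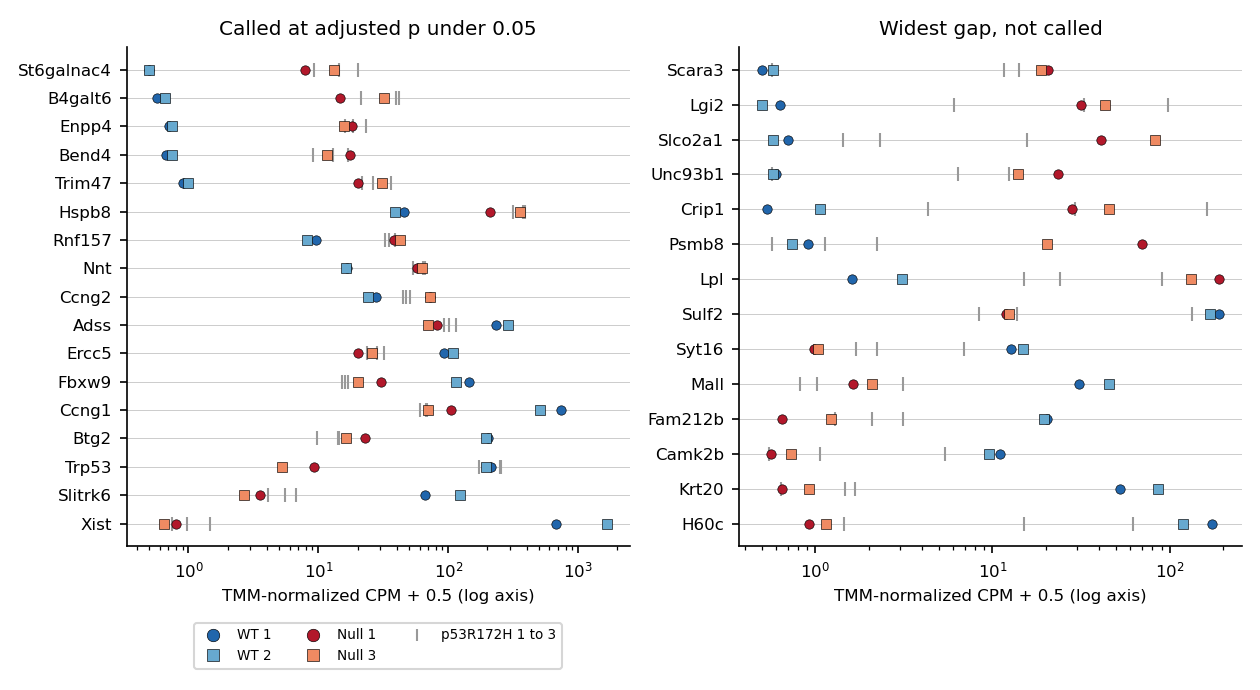
TMM-normalized CPM + 0.5 on a log axis for the 17 named genes called at an adjusted p under 0.05 (left) and 14 genes with the widest gaps that were not called (right). Circles are WT1 and Null1 and squares WT2 and Null3, with WT in blue and null in red or orange, and grey ticks are the 3 mutant libraries. The WT and null ranges do not overlap for any gene drawn, which the choice of genes requires on the right only.

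Interferon-stimulated genes lay above the WT lines in both null lines. Of 43 tested, 29 lay above both WT lines and 1 below, where 29.1% and 27.1% of all genes tested did so. Of the 29, 16 lay above by at least 1. Over the 43 genes, the mean log2 difference from the WT mean was 2.16 in Null1 and 1.38 in Null3. The median log2 fold change was 1.70, against 0.057 over all genes tested. The WT lines differed from each other on this list, with means of 0.54 in WT1 and -0.54 in WT2, and the median was 3.39 without WT1. edgeR called 0 members, with 18 higher and 0 lower at an unadjusted p under 0.05, and DESeq2 called 14 higher. The part of leukocytes in these values was not tested. The leukocyte gene Ptprc had at most 2 counts in any of the 4 libraries. Together, 11 leukocyte markers summed to 32.4 and 23.4 CPM in the null lines and 74.4 and 79.3 CPM in the WT lines. Nearly all of each sum was 1 gene, the lysosomal protein Cd68, at 32.1 and 22.5 CPM in the null lines and 74.1 and 78.9 CPM in the WT lines, and the other 10 markers were each under 1 CPM in all 4 libraries.

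The promoters of interferon-induced genes carry an element that interferon-activated factors bind, built on repeats of GAAA. It is shown for 3 antiviral genes and for B2m, with matches to GAAA, any 2 bases and GAAA in capitals, 5′ to 3′ on the strand of the gene, in RefSeq promoters of build GRCm38.p6. For Gbp3 the match is on the opposite strand and reads as TTTC repeats. The stretches lie at chr4:156200860-156200911 (Isg15, minus strand), chr3:142559984-142560029 (Gbp3, plus), chr8:71537572-71537617 (Bst2, minus) and chr2:122147533-122147572 (B2m, plus).
Isg15: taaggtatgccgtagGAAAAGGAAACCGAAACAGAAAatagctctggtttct
Gbp3: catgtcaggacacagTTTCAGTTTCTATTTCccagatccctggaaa
Bst2: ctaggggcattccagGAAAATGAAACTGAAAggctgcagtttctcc
B2m: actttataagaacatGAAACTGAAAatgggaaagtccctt
This motif, searched on both strands with overlapping matches joined, was present for 16 of 33 interferon list genes with a promoter in the table (48.5%), for 4 of 14 antigen presentation genes (28.6%) and for 357 of 10280 genes tested (3.5%).

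Among the effectors, Isg15, a ubiquitin-like modifier, was at 4.86 and 0.487 CPM in WT1 and WT2 and at 47.8 and 28.4 CPM in Null1 and Null3. Bst2, tetherin, was at 13.6 and 7.71 CPM against 99.8 and 37.3 CPM, and Gbp3, a guanylate-binding protein, at 1.40 and 0.244 CPM against 8.399 and 9.339 CPM. Both null lines were high for these 3 genes, and WT1 was higher than WT2. Of 6 signalling genes, 5 lay above both WT lines, among them Irf7, at 14.2 and 10.4 CPM against 6.33 and 2.44 CPM. Of 6 sensors, Zbp1, which binds Z-form nucleic acid, was at 5.08 and 5.35 CPM against 0.170 and 0.0812 CPM, and Ddx58, the RNA sensor RIG-I, lay below, at 40.9 and 30.8 CPM against 62.2 and 66.1 CPM.

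Of 16 genes of antigen presentation, 10 lay above both WT lines and 1 below, where 29.1% and 27.1% of all genes tested did so. Of the 10, 5 lay above by at least 1, and the median log2 fold change of the list was 1.47 (0.61 without Null1). edgeR called 0, with 7 higher and 0 lower at an unadjusted p under 0.05, and DESeq2 called 7 higher. B2m, beta-2 microglobulin, the invariant partner of class I chains, was at 159 and 132 CPM in WT1 and WT2 and at 2078 CPM in Null1 and 662 CPM in Null3. Its log2 fold change was 3.24 (SE 0.638, edgeR adjusted p = 0.1002). The class I chain H2-K1 was at 206 and 103 CPM against 1289 and 476 CPM, and reads of the near-identical class I genes may be divided among them. Psmb8, a catalytic subunit of the immunoproteasome, was at 0.408 and 0.244 CPM against 69.5 and 19.7 CPM, and Nlrc5, the transactivator of class I genes, at 1.87 and 1.71 CPM against 51.4 and 10.97 CPM. Null1 was the higher null line for each of these 4 genes. Tap1, a peptide transporter, split the null lines, with 65.8 CPM in Null1 and 18.6 CPM in Null3 around 40.6 and 37.4 CPM.

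Of the chemokines, 8 of 11 lay above both WT lines, 0 lay below and 3 split with Null1 higher. Cxcl14 was at 13.1 and 6.23 CPM in the null lines against 1.02 and 1.06 CPM, and the neutrophil attractant Cxcl5 at 91.5 and 90.2 CPM against 29.0 and 15.4 CPM. The colony-stimulating factors lay on opposite sides. Csf1, the macrophage factor, was at 57.6 and 318 CPM in the null lines against 22.6 and 18.1 CPM in the WT lines, and Csf3, the granulocyte factor, at 31.7 and 19.8 CPM against 141 and 234 CPM. Over the 33 genes of cytokines and NF-kB, 14 lay above and 11 below both WT lines, where 29.1% and 27.1% of all genes tested did so. For these 33 genes edgeR called 0 in either direction, with 6 higher and 6 lower at an unadjusted p under 0.05. DESeq2 called 5 higher and 4 lower.

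Mitosis genes were low in Null1, and in Null3 they lay close to WT1. The mean log2 difference from the WT mean over 34 genes was -2.69 in Null1 and -0.52 in Null3, where WT1 itself was at -0.48 and WT2 at 0.48. Of the 34, 20 lay below both WT lines and 0 above, where 27.1% and 29.1% of all genes tested did so. Null3 lay above and Null1 below for 3, and only 1 gene of the 20 lay below by at least 1. The median log2 fold change was -1.47. It was -2.94 without Null3, -0.72 without Null1 and -0.82 without WT2. edgeR called 0 genes, with 10 lower and 0 higher at an unadjusted p under 0.05, and DESeq2 called 9 lower.

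Promoters of many mitosis genes hold the element TTTGAA, bound by the repressor and activator complexes of the cell cycle. It is shown here for Cdc20, Ube2c and Espl1, with the element in capitals, 5′ to 3′ on the strand of the gene, in RefSeq promoters of build GRCm38.p6, and for Ube2c the match is on the opposite strand. The stretches lie at chr4:118437344-118437376 (minus strand), chr2:164769885-164769920 (plus) and chr15:102296251-102296286 (plus).
Cdc20: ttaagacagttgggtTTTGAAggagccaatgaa
Ube2c: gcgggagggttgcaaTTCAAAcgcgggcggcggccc
Espl1: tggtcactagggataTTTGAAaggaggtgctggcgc
TTTGAA was found on either strand for 19 of 29 mitosis genes with a promoter in the table (65.5%) and for 1447 of 10280 genes tested (14.1%).

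Cdc20, the activator of the anaphase-promoting complex, was at 40.2 and 77.9 CPM in WT1 and WT2, 7.36 CPM in Null1 and 45.8 CPM in Null3. Ube2c, its ubiquitin-conjugating enzyme, was at 57.0 and 90.1 CPM, 8.61 CPM and 89.6 CPM in the same order, and Espl1, separase, at 16.6 and 34.3 CPM, 3.74 CPM and 16.1 CPM. Null1 was low in each, and Null3 lay within or at the lower edge of the WT range. The proliferation marker Mki67 was at 99.8 and 225 CPM in the WT lines, 14.6 CPM in Null1 and 98.0 CPM in Null3. The kinesin Kif23, the member with the widest gap, was at 46.4 and 91.5 CPM against 8.89 and 22.7 CPM.

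Of 37 replication genes, 18 lay below and 2 above both WT lines, where 27.1% and 29.1% of all genes tested did so. The median of the list was -0.58 (-0.27 without Null1, -0.33 without WT2 and -0.97 without Null3). edgeR called 0, with 13 lower and 0 higher at an unadjusted p under 0.05, and DESeq2 called 8 lower. Of 5 genes of nucleotide supply, 4 lay below and 0 above. Rrm2, a subunit of ribonucleotide reductase, was at 89.6 and 159 CPM in the WT lines and 12.2 and 30.7 CPM in the null lines, and Tk1, thymidine kinase, at 23.5 and 46.0 CPM against 4.72 and 7.44 CPM. E2f1, the S phase factor, lay above, at 20.1 and 46.4 CPM against 18.5 and 16.2 CPM.

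Keratins and adhesion genes of basal squamous cells were lower in both null lines. Of 25 basal genes, 15 lay below both WT lines and 1 above, where 27.1% and 29.1% of all genes tested did so. Of the 15, 6 lay below by at least 1, and the median of the list was -0.64. edgeR called 0, with 6 lower and 1 higher at an unadjusted p under 0.05, and DESeq2 called 6 lower and 1 higher. Krt5 was at 13830 and 21400 CPM in WT1 and WT2 and at 4048 and 2035 CPM in Null1 and Null3 (log2 fold change -2.53, SE 0.492, edgeR adjusted p = 0.0995). Its partner Krt14 was at 11360 and 14410 CPM against 4067 and 2399 CPM (edgeR adjusted p = 0.111). Bcam, a laminin receptor, was at 106 and 164 CPM against 22.1 and 36.6 CPM. Of 11 adhesion genes 9 lay below and 0 above. Dlk2, a Notch-related surface protein, was the member above, at 26.3 and 32.9 CPM against 7.65 and 11.9 CPM.

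The stress keratins Krt6a, Krt6b and Krt16, which squamous cells make on wounding and in culture, lay below as well. Krt16 was at 247 and 333 CPM in the WT lines and 57.1 and 55.8 CPM in the null lines, and Krt6a at 5784 and 5230 CPM against 1347 and 2256 CPM. Krt17 was at 9939 and 5734 CPM in the WT lines and 6306 and 5409 CPM in the null lines. For the simple keratins Krt8 and Krt18 both null lines lay within the WT range, with Krt8 at 679 and 69.9 CPM in WT1 and WT2 and 414 and 144 CPM in Null1 and Null3. edgeR called 0 of these 9 keratins, with 4 lower at an unadjusted p under 0.05 and 3 lower by DESeq2.

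Suprabasal genes, which make the cornified layers, lay on both sides. Of 40 tested, 16 lay below both WT lines, 2 above, 7 with Null1 above and Null3 below, and 6 the other way, so 13 of 40 disagreed, where 7.58% and 6.94% of all genes tested did so in these directions. Over all genes tested, 27.1% lay below and 29.1% above. The median of the suprabasal list was -0.42, and it was -0.94 without Null1. edgeR called 0, with 8 lower and 0 higher at an unadjusted p under 0.05, and DESeq2 called 5 lower. Ivl, involucrin, was at 19.8 and 31.2 CPM in the WT lines and 5.99 and 2.96 CPM in the null lines. Tgm3, a cross-linking transglutaminase, was at 2.82 and 5.44 CPM against 0.183 and 0.380 CPM, and Zfp750, a factor of late differentiation, at 54.3 and 44.4 CPM against 6.97 CPM in Null1 and 0.797 CPM in Null3. Krt13, the main keratin of suprabasal esophagus, was at 85.9 and 173 CPM against 14.9 and 47.5 CPM.

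Of 38 genes of epithelial junctions, 13 lay below, 4 above, and 6 split with Null1 higher, with a median of -0.25 (-0.47 without Null1, -0.06 without Null3 and -0.11 without WT1). Over all genes tested, 27.1% lay below, 29.1% above and 7.58% split with Null1 higher. For the junction list edgeR called 0, with 7 lower and 0 higher at an unadjusted p under 0.05, and DESeq2 called 4 lower. The desmosome plaque protein Pkp1 was at 1669 and 1683 CPM in the WT lines and 981 and 974 CPM in the null lines, and the tight junction protein Cldn1 at 352 and 312 CPM against 138 and 170 CPM. Notch pathway genes, which direct suprabasal differentiation, had 4 of 11 below and 2 above, where 27.1% and 29.1% of all genes tested did so. Notch1 was at 218 and 244 CPM in the WT lines and 23.04 and 53.68 CPM in the null lines, and its target Hes1 at 245 and 349 CPM against 52.2 and 41.5 CPM (edgeR adjusted p of 0.190 and 0.0689). Notch3 split the lines, at 4.08 CPM in Null1 and 42.8 CPM in Null3 around 14.1 and 16.7 CPM. edgeR called 0 of the 11, with 2 higher and 3 lower at an unadjusted p under 0.05, and DESeq2 called 3 lower.

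Other lists differed between the null lines. NRF2 target and detoxification genes had a mean log2 difference of 1.24 in Null1 and -0.02 in Null3. Aldh3a1, an aldehyde dehydrogenase, was at 549 CPM in Null1 and 21.3 CPM in Null3 against 2.99 and 4.63 CPM in WT1 and WT2, and Nqo1, a quinone reductase, at 138 and 18.0 CPM against 2.35 and 4.14 CPM. Both null lines were high for these 2 genes, with Null1 the higher. Gsto1, a glutathione transferase, went the other way, at 2323 and 614 CPM against 5794 and 4158 CPM. Of 27 genes, 6 lay above and 5 below, counts under the 29.1% and 27.1% of all genes tested, and 4 split with Null1 higher. edgeR called 0, with 4 higher and 4 lower at an unadjusted p under 0.05 and 4 higher and 3 lower by DESeq2. Of 24 genes of sterol and fatty acid synthesis, 10 split with Null1 higher and 0 with Null3 higher, where 7.58% and 6.94% of all genes tested did so. Mvd, of the mevalonate pathway, was at 130 CPM in Null1 and 36.9 CPM in Null3 around 75.0 and 55.9 CPM.

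Genes of hypoxia and glycolysis had 11 of 27 above both WT lines and 2 below, where 29.1% and 27.1% of all genes tested did so. Slc16a3, the lactate exporter MCT4, was at 9.28 and 25.8 CPM in the null lines against 0.136 and 0.406 CPM in the WT lines. The neuronal enolase Eno2 had 1 count over the WT libraries and 271 over the null libraries, a pooled ratio of 191 with a 95% counting interval of 34.0 to 7569. Most of the 271 counts came from Null3, with 244 (9.26 CPM) against 27 in Null1 (0.822 CPM). P4ha1, a collagen hydroxylase induced by low oxygen, was at 74.3 CPM in both null lines against 40.7 and 38.4 CPM (edgeR adjusted p = 0.0812). edgeR called 0 of the 27, with 5 higher and 2 lower at an unadjusted p under 0.05, and DESeq2 called 3 higher and 1 lower.

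Genes of TGF-beta and BMP signalling, which restrains epithelial growth and induces matrix, had 11 of 29 above both WT lines, 2 below and 9 with Null3 above and Null1 below. The mean log2 difference was 0.08 in Null1 and 1.62 in Null3, and the median log2 fold change of 0.62 was -0.03 without Null3, 1.05 without Null1 and 1.06 without WT2. Over all genes tested, 29.1% lay above, 27.1% below and 6.94% with Null3 above and Null1 below. For the TGF-beta and BMP list edgeR called 0, with 9 higher and 0 lower at an unadjusted p under 0.05, and DESeq2 called 6 higher. The ligand Tgfb2 was at 2.42 and 2.36 CPM in WT1 and WT2 and at 16.5 and 11.2 CPM in Null1 and Null3. Smad6, an inhibitor of BMP signals, was at 0.170 and 0.244 CPM against 2.89 and 11.1 CPM. Both null lines were high for these 2 genes, whereas Ltbp1, which holds latent TGF-beta in matrix, was at 13.3 CPM in Null1 and 227 CPM in Null3 around 36.6 and 48.0 CPM.

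The genes of mesenchymal transition showed the same difference between the null lines, with a mean of -0.13 in Null1 and 2.10 in Null3. Of 28, 8 lay above both WT lines, 6 below, 4 were high in Null3 alone and 3 split with Null3 higher. Over all genes tested the shares above and below were 29.1% and 27.1%, so the counts above and below do not set the list apart. Sparc, a matrix glycoprotein, was at 20.6 and 39.1 CPM in the WT lines, 135 CPM in Null1 and 644 CPM in Null3, and the repressor Zeb2 at 3.61 and 4.38 CPM, 11.1 CPM and 69.1 CPM in the same order. Tpm1, tropomyosin, lay below, at 794 and 732 CPM against 1500 and 1315 CPM. edgeR called 0, with 9 higher and 1 lower at an unadjusted p under 0.05, and DESeq2 called 7 higher and 1 lower. In Mutant1, Mutant2 and Mutant3 the list mean was 2.32, 1.33 and 1.88, so the higher values were not particular to Null3. In Null3 they stood beside muscle and fibroblast transcripts, whose part was not tested.

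Of 17 genes of ErbB signalling, which drives growth of squamous cells, 9 lay below both WT lines and 3 above, with a median of -0.62. Over all genes tested, 27.1% lay below and 29.1% above, with a median of 0.057. The ligand Nrg1 was at 136 and 216 CPM in the WT lines and 61.4 and 80.6 CPM in the null lines. The feedback phosphatases lay on opposite sides: Dusp4 at 31.0 and 89.0 CPM in the null lines against 8.51 and 6.17 CPM, and Dusp5 at 13.8 and 15.3 CPM against 40.2 and 31.1 CPM (edgeR adjusted p of 0.106 and 0.1002). Of 17 immediate early genes 8 lay below and 2 above, among them Fos, at 18.3 and 28.6 CPM against 64.6 and 74.2 CPM, and Egr1, at 7.55 and 31.4 CPM against 65.2 and 122 CPM. edgeR called 0 on both lists. At an unadjusted p under 0.05 the ErbB list had 2 higher and 4 lower, as by DESeq2, and the immediate early list 0 higher and 5 lower, with 3 lower by DESeq2.

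The calcium-binding S100 genes had 6 of 12 below and 3 above, where 27.1% and 29.1% of all genes tested did so. S100a6 was at 1608 and 1949 CPM in WT1 and WT2 and at 519 and 616 CPM in Null1 and Null3 (edgeR adjusted p = 0.0802), while S100a8, a calprotectin subunit, was at 46.6 and 9.23 CPM in the null lines against 4.39 and 3.41 CPM. Of 17 heat shock genes 1 rose (Hspb8), and 5 lay above and 0 below both WT lines, where 29.1% and 27.1% of all genes tested did so. Hsph1, a co-chaperone of Hsp70, was at 236 and 188 CPM against 101 and 80.8 CPM (edgeR adjusted p = 0.0867). The nuclear RNAs Malat1 and Neat1 lay below in both null lines, with Malat1 at 243 and 284 CPM against 459 and 563 CPM, whose relation to RNA quality was not tested.

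**Figure D4:**
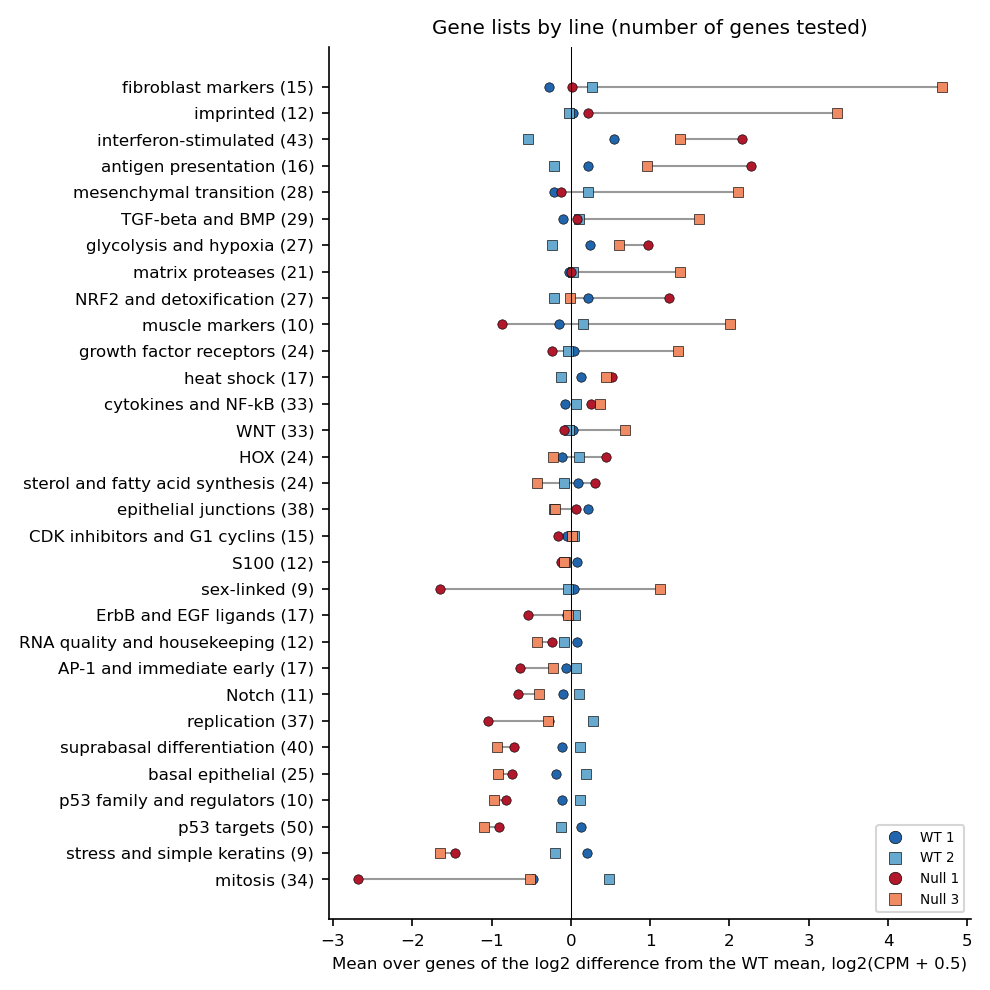
Mean over the genes of each list of the log2 difference from the WT mean, on log2(CPM + 0.5), for each of the 4 libraries, with the number of genes tested in brackets; a grey line joins the null lines. The null lines lay close together for p53 targets (-0.90 and -1.09) and far apart for mitosis (-2.69 and -0.52) and fibroblast markers (0.02 and 4.68).

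Where the null lines lay on opposite sides of the WT lines, the genes with Null1 high were led by Mgam. Mgam, an intestinal glucosidase, had the largest distance, at 53.7 CPM in Null1 and 0.531 CPM in Null3 around 5.48 and 7.39 CPM in WT1 and WT2. Sprr1b, a cornified envelope precursor, was at 94.97 CPM and 8.998 CPM around 23.3 and 23.7 CPM, and Il1f9, an epithelial cytokine of the interleukin-1 family, at 80.5 and 6.42 CPM around 22.3 and 17.2 CPM. Tmprss4, a membrane serine protease, was at 111 and 8.50 CPM around 26.1 and 52.0 CPM. Of the 8 genes with the largest distance in this direction, 3 belong to gene families with close copies (Defb3, Sprr1b and Sprr2e), whose reads could be shared.

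In the other direction, Null3 was high for Arhgap24, a GTPase-activating protein, at 21.0 CPM against 0.152 CPM in Null1, around 2.69 and 2.60 CPM in the WT lines. Gjb2, the gap junction protein connexin 26, was at 91.9 and 2.34 CPM around 12.3 and 22.4 CPM, and Rgs16, a regulator of G protein signals, at 104 and 1.61 CPM around 7.04 and 12.1 CPM. Lgals7, galectin-7 of stratified epithelia, was at 120 and 2.37 CPM around 9.08 and 14.6 CPM. The others were Fhl1, Rftn1, Ltbp2 and Glipr2, with distances of 1.59 to 1.86. Of these, Ltbp2 belongs to the TGF-beta and BMP list. Of its 29 genes, 9 split with Null3 higher and 0 with Null1 higher, where 6.94% and 7.58% of all genes tested did so.

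**Figure D5:**
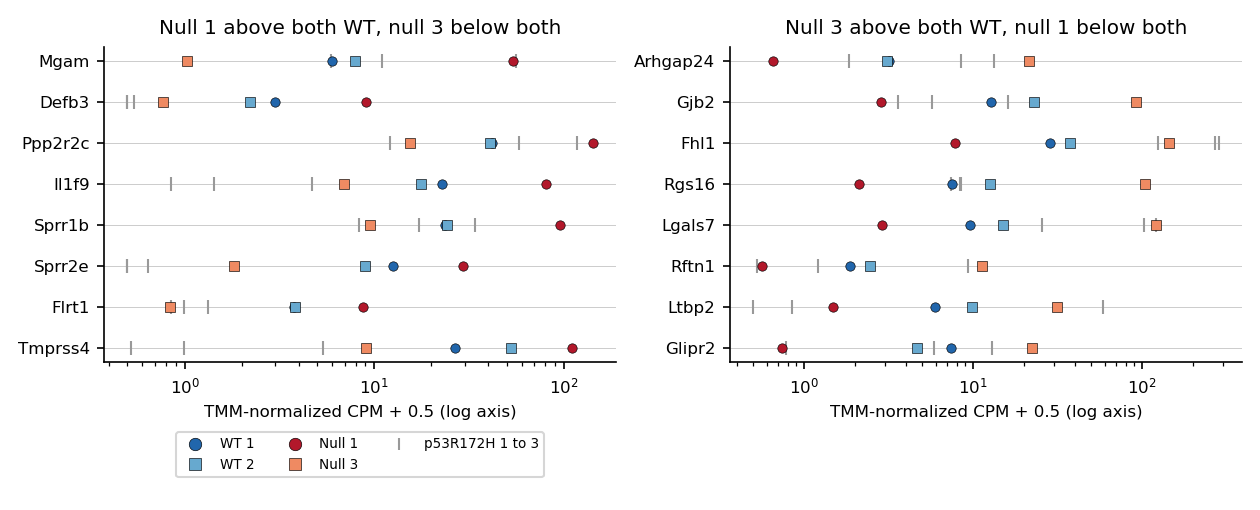
TMM-normalized CPM + 0.5 on a log axis for the 8 genes with the largest distance in each direction of disagreement, Null1 above (left) and Null3 above (right). The WT symbols lie between the null symbols for every gene drawn, as the choice of genes requires, and grey ticks give the 3 mutant libraries.

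A rule added after the values were seen took genes where 1 null line lay at least 1 outside the WT range while the other lay within it. Null3 alone was high for 294 genes (2.14%) and low for 56 (0.407%), and Null1 alone was high for 62 (0.45%) and low for 107 (0.777%). Among the genes high in Null3 alone with the largest distance were Lox, which cross-links collagen, at 715 CPM against 0.0680 and 2.44 CPM in WT1 and WT2 and 0.669 CPM in Null1, Bgn, the proteoglycan biglycan, at 868 CPM against 0.102, 3.49 and 0.791 CPM, and Prrx1, a limb and connective tissue factor, at 107 CPM against 0, 0.325 and 0.0913 CPM. Vim, the filament vimentin, was at 225 CPM in Null3 against 0.646 and 3.41 CPM in the WT lines and 2.71 CPM in Null1. Among the 15 fibroblast markers tested, 8 were high in Null3 alone. Of the imprinted genes, H19 was at 752 CPM in Null3 and 0.213 CPM in Null1 against 0.408 and 0.974 CPM, and Igf2 at 195 and 2.74 CPM against 2.11 and 2.76 CPM. These genes moved with the muscle and fibroblast markers of Null3, and the part of those cells or programs in the result was not tested. The mean log2 difference over the fibroblast markers was 4.56, 0.57 and 3.37 in Mutant1, Mutant2 and Mutant3 and 4.68 in Null3. Over the imprinted genes it was 3.15, 1.02 and 0.95 in the mutant lines and 3.35 in Null3.

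The genes low in Null1 alone included mitosis genes, 10 of the 34 in that list. Diap3, an actin nucleator of cytokinesis, was at 1.25 CPM against 22.8 and 47.7 CPM in the WT lines and 29.5 CPM in Null3, Aspm, a spindle pole protein, at 1.52 CPM against 18.6, 41.3 and 19.4 CPM, and Ccnb1, cyclin B1, at 4.11 CPM against 30.3, 60.7 and 48.6 CPM. Tnc, the matrix protein tenascin C, was at 66.6 CPM against 481, 1042 and 791 CPM. Genes high in Null1 alone included 5 interferon-stimulated genes, among them Oas1a, at 9.71 CPM against 1.97 and 0.0812 CPM in the WT lines and 1.48 CPM in Null3. Abcc3, a transporter of conjugates, was at 22.1 CPM against 2.93, 0.325 and 2.39 CPM. Genes low in Null3 alone included Ltf, lactoferrin, at 0.645 CPM against 12.4, 19.97 and, in Null1, 15.7 CPM, and Apobec3, a cytidine deaminase against retroviruses, at 11.4 CPM against 54.8, 101 and 56.4 CPM.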

How the data were processed

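Stranded poly(A) libraries were made from total RNA of 7 lines, per the labels' protocols. The authors deposited unnormalized counts, 1 row per gene symbol, with no coordinates. STAR 2.5.1b and build mm9 are named per the submitters' processing notes. How reads were counted, with which strand setting and annotation, was not given in the sources used here. Antisense pairs and close paralogs are therefore uncertain. Of 24047 names, 92 spike-in names with 0 counts in total were left out, and 27 date-like names were kept in the fit but not named. The libraries of a group were not copies: the chi-square of their counts over its degrees of freedom was 58.7 for the WT pair and 225.9 for the null pair.

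All 7 libraries were fitted with edgeR 4.0.16 in R 4.3.3 (TMM factors, default expression filter by group, legacy quasi-likelihood F test, Benjamini-Hochberg over 13768 genes, threshold 0.05), with 1 estimate of spread for 3 groups (common biological coefficient of variation 0.485). Each standard error is the log2 fold change over the root of its F. Tested on simulated data, the fit recovered most changes of the largest size and few of the smaller sizes. Distances used log2(CPM + 0.5). Bounds and ratios used 3 counts per group as the floor and exact 95% intervals, which cover counting error only. Alternatives, run also with DESeq2 1.42.0 and limma 3.58.1, are described in the closing section.

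The comparison, its 33 gene lists and the naming rule were chosen with earlier results of these data known. The rule named every called gene, the 10 widest gaps on each side with at least 5 CPM in both libraries of the higher group, the 8 largest distances in each direction of disagreement, up to 3 genes per side and 2 disagreeing genes per list, and 17 genes known for p53, sex or epithelium, without clones or predicted models. Some genes that the rule named are not reported here. Genes named beyond it, to describe a list by role, were chosen after their values were seen, as were the skeletal muscle list and the rule for departures of 1 line. Promoter sequences came from RefSeq (GRCm38.p6) and were matched by symbol for 10280 genes tested. The numbers of the WT and null lines share only number 1 (correlation of deviations 0.149), so they pair no samples.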

Additional observations from a re-analysis of the deposited data

How the results depend on the processing

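RLE and upper-quartile factors left the 19 calls at 19, a filter of 5 CPM in 2 libraries gave 27, thinned libraries 28 and a fit of only the null and WT libraries 17, of which 7 were shared with the 19. The newer quasi-likelihood form gave 55 (18 shared), no filter 77, DESeq2 1635 and limma-voom 0. The replicate block gave 0 calls, with 1454 genes at an unadjusted p under 0.05, but the numbers pair no samples of these groups. Leaving out a library gave 0 to 55 calls. With a distance of at least 1, leaving out a library gave 579 to 1512 genes above and 472 to 875 below, where a group of 1 library has no spread to cross. A distance of 0.5 gave 1151 above, 1108 below and 175 disagreeing, and a distance of 2 gave 124, 80 and 3. A pseudocount of 0.1 CPM gave 707 above and 89 disagreeing, and one of 2 CPM gave 247 and 20. With a filter of 5 CPM in 2 libraries Null1 alone was high for 22 genes and Null3 alone for 122. All other scalings and filters kept the class counts over all genes within 1.5 times. Of the class counts of single gene lists under the alternatives, 104 moved and 424 did not.

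Of the fold changes of named genes under these alternatives, 3296 kept their side of the threshold, 133 lost a call, 121 gained one and 18 changed sign. Fold changes with no adjusted p from DESeq2 are not counted, and the median of the endothelial and glandular list could not be had with the 5 CPM filter. Of the list medians, 43 moved by more than the SD between the null lines and 220 did not. None of the 16 genes that changed sign was called in the fit of all libraries. With the replicate block they were H2-T23 (0.196), Ovol1 (-0.0411), Hoxb2 (-0.369), Hoxb3 (-0.199) and Bgn (-0.372). Over the fits that left out a library, the log2 fold change ran from -0.314 to 0.125 for Cdh1 and -2.86 to 0.241 for Trex2 (0.0745 without WT1). It ran from -0.0245 to 2.59 for Phospho1, -0.0428 to 2.39 for Icosl, -3.33 to 0.0627 for Ppbp, -3.51 to 0.0529 for Tnc, -4.18 to 0.0326 for Tbx18 and -3.46 to 0.0952 for Ccnb1, where the sign changed without Null1. It ran from -0.574 to 12.28 for Lox, -0.927 to 12.00 for Bgn, -0.363 to 13.96 for Prrx1 and -2.72 to 15.32 for Col3a1, where the sign changed without Null3. These 4 genes, the 6 before them and Trex2 were named because 1 null line departed while the other lay within the WT range. The cause of the changes of sign was not tested. WT2, with 12751118 counts, was the least deep library.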
